A study of Mus musculus with 12 samples.

Results

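Natural killer (NK) cell preparations from the spleens of Mirc11-/- mice challenged with Listeria were compared with those of challenged wild-type mice, 3 libraries against 3. The comparison took in every gene outside the X and Y chromosomes that had enough counts to be tested, which left 16199 of the 46462 such genes listed, out of 50643 genes on all chromosomes. All libraries came from C57BL/6 mice, and the cells were isolated by negative selection, which removes other cell types and does not capture NK cells themselves. The Mirc11-/- animals are called knockout below, and the sources used here do not say whether all of their cells carried the deletion. The remaining 6 libraries, 3 from unchallenged wild-type and 3 from unchallenged knockout mice of the same strain, supplied the same genotype comparison without infection. Neither the dose of Listeria nor the time between challenge and collection is stated in the sources used here. The libraries of a group are described as biological replicates, but not as 1 animal each, and p-values therefore measure no more than the spread between these libraries.

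The Mirc11 locus encodes a cluster of microRNAs, namely miR-23a, miR-27a and one of the copies of miR-24. A microRNA pairs through its seed with sites in the 3′ UTR of messenger RNAs and lowers their stability or translation. NK cells kill infected cells with perforin and granzymes and secrete interferon-gamma, which arms macrophages against Listeria, an intracellular bacterium. Ubiquitin chains built on TRAF6 carry signals from cytokine receptors and microbial sensors to NF-kB and AP-1, and deubiquitinases and ubiquitin ligases restrain them. According to the title, the study asked whether Mirc11 acts on inflammatory responses through such ubiquitin modifiers.

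The mature microRNAs encoded by the cluster are shown because their seeds define the sites searched for below. Their levels in the knockout were not measured here. RefSeq places them on the plus strand of chromosome 8 in GRCm38.p6, at chr8:84208563-84208583, chr8:84208727-84208747 and chr8:84208875-84208896 in the order given. Capitals mark the seed, bases 2 to 8 from the 5′ end.
miR-23a-3p: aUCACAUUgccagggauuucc
miR-27a-3p: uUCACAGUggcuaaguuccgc
miR-24-3p: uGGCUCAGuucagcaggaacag
The seeds of the 3 microRNAs differ from one another, so each has its own set of sites.

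The 6 challenged libraries held 21345695 to 23665679 counts and the 6 unchallenged ones 17624530 to 22108403. The precursor genes Mir23a, Mir27a and Mir24-2 had 0 counts in all 12 libraries, so the targeted genes do not check the labels. Gm26532, a long non-coding RNA beside Mir24-2 that was chosen after its values were seen, had 54, 96 and 76 counts in challenged wild-type and 21, 21 and 58 in challenged knockout libraries. The library labelled challenged knockout replicate 3 therefore lay inside the wild-type range for this transcript, and the counts of list members are given below also without it where they differ. Xist, the RNA of the inactive X chromosome, measured 1211 to 1544 CPM (counts scaled to library size with TMM) in challenged wild-type and 523 to 1019 CPM in challenged knockout libraries. The summed level of 4 Y-linked genes was 1.17 to 1.77 CPM and 121 to 212 CPM in the same libraries, so sex moved with genotype and the 2 cannot be told apart. Every challenged knockout library held both Xist and Y-linked RNA at these levels, and so held RNA of both sexes. The sources used here do not say how the animals were combined. Xist stood at 1179 to 1981 CPM in unchallenged wild-type and 0.359 to 1.06 CPM in unchallenged knockout libraries, so the 2 knockout groups also differed from each other in sex, and the highest unchallenged wild-type library held 115 CPM of the Y-linked genes. Haemoglobin transcripts took 0.169 to 0.227% of counts in challenged wild-type and 1.92 to 2.41% in challenged knockout libraries.

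After challenge the genotypes differed across a large part of the transcriptome. In edgeR's quasi-likelihood test with Benjamini-Hochberg adjustment over all genes tested, 7911 of 16199 genes (48.8%) passed an adjusted p of 0.05, of which 3673 (22.7%) were higher and 4238 (26.2%) lower in the knockout. Under upper-quartile scaling the split turned to 4468 higher and 3447 lower, so the excess of lower genes depends on the scaling. A difference of at least 2-fold was reached by 1101 higher genes (6.8%) and 1025 lower ones (6.33%). The tails were unequal, with 151 genes at least 8-fold higher and 38 at least 8-fold lower. The libraries of the 2 genotypes did not overlap for 8593 genes (53%). Without challenge the same contrast called 1906 genes (11.8%), 1085 higher (6.7%) and 821 lower (5.07%), and the median absolute log2 difference was 0.139 against 0.337 after challenge. The difference between both contrasts, the interaction term, passed for 5724 genes (35.3%), 2702 (16.7%) more positive and 3022 (18.7%) more negative after challenge. Without challenged knockout replicate 3 the challenged contrast called 3246 higher and 3720 lower genes, of which 1070 and 916 reached 2-fold, and the interaction called 2377 and 2692.

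The plot of every list member shows where the gene groups fell. Lists were compared with the background of 22.7% higher and 26.2% lower genes, whose median log2 difference was -0.004, and no test was run over a list.

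**Figure D1:**
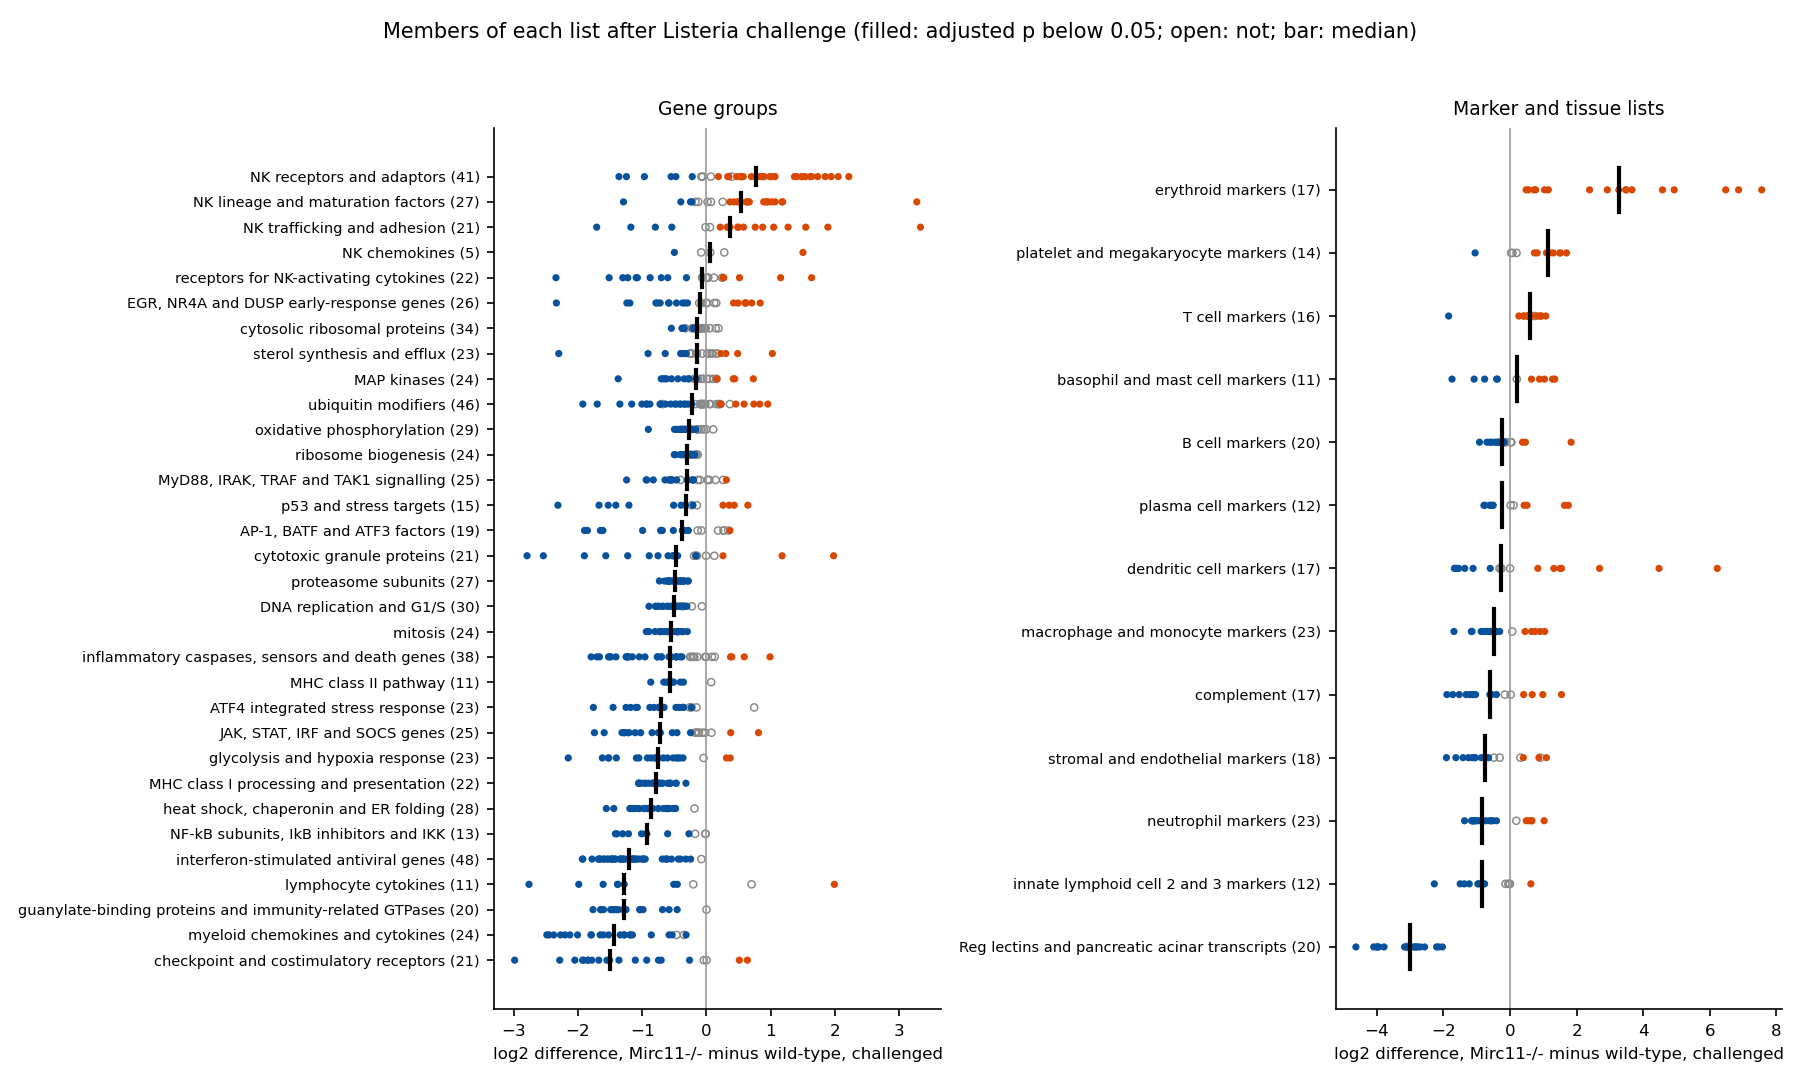
Each point is a tested gene of the list named at the left (number tested in parentheses), placed by its log2 difference between challenged knockout and challenged wild-type libraries. Orange points passed as higher, blue points passed as lower and open circles did not pass at an adjusted p of 0.05, and the black bar is the list's median; checkpoint receptors, myeloid chemokines and interferon targets sit mostly left of 0, NK receptors and erythroid markers mostly right.

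Transcripts of several granzymes and most lymphocyte cytokines were lower in challenged knockout than in challenged wild-type preparations, while most NK receptors, given further on, were higher. Gzmb encodes granzyme B, a protease delivered into target cells, and measured 1844, 1834 and 1781 CPM in the wild-type and 507, 506 and 450.3 CPM in the knockout libraries (log2 -1.90 ± 0.07, adjusted p = 3.4e-11; the value after ± is the standard error). The wild-type mean was 3.73 times the knockout mean, and the libraries of each genotype lay close together. Of 21 cytotoxic granule genes tested, 13 were lower, 3 higher and 5 did not pass (median log2 difference -0.47). Gzmc, a granzyme of activated killer cells, measured 46.7, 48.1 and 44.3 CPM against 7.18, 7.6 and 5.26 CPM (log2 -2.79 ± 0.15, adjusted p = 1.33e-09). All challenged knockout libraries still stood above the unchallenged knockout ones, which had 0.719 to 1.29 CPM. Perforin, the pore-forming protein encoded by Prf1, differed less, at 937, 955 and 958 CPM in wild-type and 603, 500.5 and 588 CPM in knockout libraries (log2 -0.75 ± 0.09, adjusted p = 3.61e-06), again without overlap. Serpinb9, an inhibitor that shields killer cells from their own granzyme B, had a log2 difference of -1.22 ± 0.08 and its relative Serpinb6b one of -1.57 ± 0.07. Ctsw, a cathepsin of cytotoxic lymphocytes, went against the list with 125, 136 and 151 CPM in wild-type and 339.8, 275 and 318 CPM in knockout libraries (log2 1.18 ± 0.09, adjusted p = 5.57e-08). Gzmm, another granzyme of NK cells, was likewise higher in the knockout (log2 1.98 ± 0.18), with 1.23 to 2.44 CPM in wild-type and 6.46 to 7.98 CPM in knockout libraries. In bulk preparations such as these, fewer cells of a type and less RNA per cell cannot be told apart.

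Among lymphocyte cytokines, 8 of 11 tested were lower in the knockout and 1 was higher (median log2 difference -1.28). Ifng, the gene of interferon-gamma, measured 298, 289.7 and 279.7 CPM in challenged wild-type and 92.9, 102 and 138 CPM in challenged knockout libraries (log2 -1.38 ± 0.13, adjusted p = 1.76e-06). Replicate 3 was the highest knockout library and still held less than every wild-type one. Tnf, a cytokine that activates phagocytes and endothelium, measured 51.7, 56.5 and 49.4 CPM against 22.8, 23.4 and 18.7 CPM (log2 -1.28 ± 0.09, adjusted p = 2.74e-08). Il10, which dampens macrophage and T cell responses, had 22.4, 18.2 and 19.7 CPM and 5.13, 5.48 and 4.61 CPM (log2 -1.99 ± 0.14, adjusted p = 2.29e-08). The anti-inflammatory Il10 thus stood lower together with the inflammatory cytokines. Il22, which acts on epithelia and is made mainly by innate lymphoid and T cells, was at 9.43 to 10.7 CPM in wild-type and 1.15 to 1.89 CPM in knockout libraries (log2 -2.76 ± 0.21). Csf2, the growth factor GM-CSF, was lower both after challenge (log2 -1.38 ± 0.18) and without it (log2 -0.72 ± 0.19, adjusted p = 0.0246). The member that passed as higher was Il2, a T cell growth factor, at no more than 0.724 CPM in any of the 6 libraries and with overlapping groups (log2 1.99 ± 0.76, adjusted p = 0.0413), a call lost without wild-type replicate 1 or 2 or knockout replicate 2 or 3 (adjusted p = 0.0925, 0.138, 0.251 and 0.0605).

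The chemokines that NK cells secrete did not share a direction. Ccl5, which attracts T cells and monocytes, measured 409.7, 381 and 395 CPM in wild-type and 1203, 985 and 1171 CPM in knockout libraries (log2 1.50 ± 0.08, adjusted p = 8.81e-10). The wild-type libraries were uniformly low, and unchallenged knockout libraries, at 1793 to 1881 CPM, were higher than both challenged groups. Xcl1, a lure for cross-presenting dendritic cells, was lower, at 68.3, 68.9 and 73.6 CPM in the knockout against 106, 93.6 and 98.1 CPM in the wild-type libraries (log2 -0.50 ± 0.06, adjusted p = 1.05e-05). Ccl3 and Ccl4, chemokines for monocytes and lymphocytes, did not pass (log2 0.28 ± 0.17 and -0.08 ± 0.13, adjusted p = 0.211 and 0.645), and their libraries overlapped. For Ccl3, knockout replicate 3 stood apart at 286 CPM from 168 and 171 CPM in replicates 1 and 2, and without it the difference was -0.02.

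Chemokines and cytokines typical of myeloid cells were lower nearly throughout, with 22 of 24 lower, 0 higher and a median log2 difference of -1.43. Cxcl10, an interferon-induced ligand of CXCR3 that draws T and NK cells, measured 320.4, 367 and 314 CPM in wild-type and 76.1, 73 and 58.5 CPM in knockout libraries (log2 -2.27 ± 0.10, adjusted p = 1.5e-10). Cxcl9, which binds the same receptor, measured 149, 139 and 129 CPM against 43.9, 43.8 and 32.7 CPM (log2 -1.79 ± 0.11, adjusted p = 7.22e-09). For both, every knockout library was well below the wild-type ones, and replicate 3 was the lowest. Il1b, the precursor of interleukin-1 beta, had 178, 206 and 166 CPM and 85, 80.4 and 62 CPM (log2 -1.27 ± 0.11, adjusted p = 1.3e-07), whereas without challenge it was higher in the knockout (log2 0.92 ± 0.13, adjusted p = 1.81e-04). Cxcl16, a membrane-bound chemokine and scavenger receptor, also had opposite signs, with log2 -2.20 ± 0.10 after challenge and 0.66 ± 0.11 without it. Il15, the cytokine on which NK cell survival depends, was lower in both settings, at log2 -1.80 ± 0.12 after challenge and -1.31 ± 0.14 without it. Summed markers of macrophages and monocytes, which make many of these proteins, were at 2345 to 2682 CPM in challenged wild-type and 1654 to 2003 CPM in challenged knockout libraries, and summed neutrophil markers at 2528 to 3038 and 1207 to 1721 CPM. Their part in the chemokine differences was not tested.

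**Figure D2:**
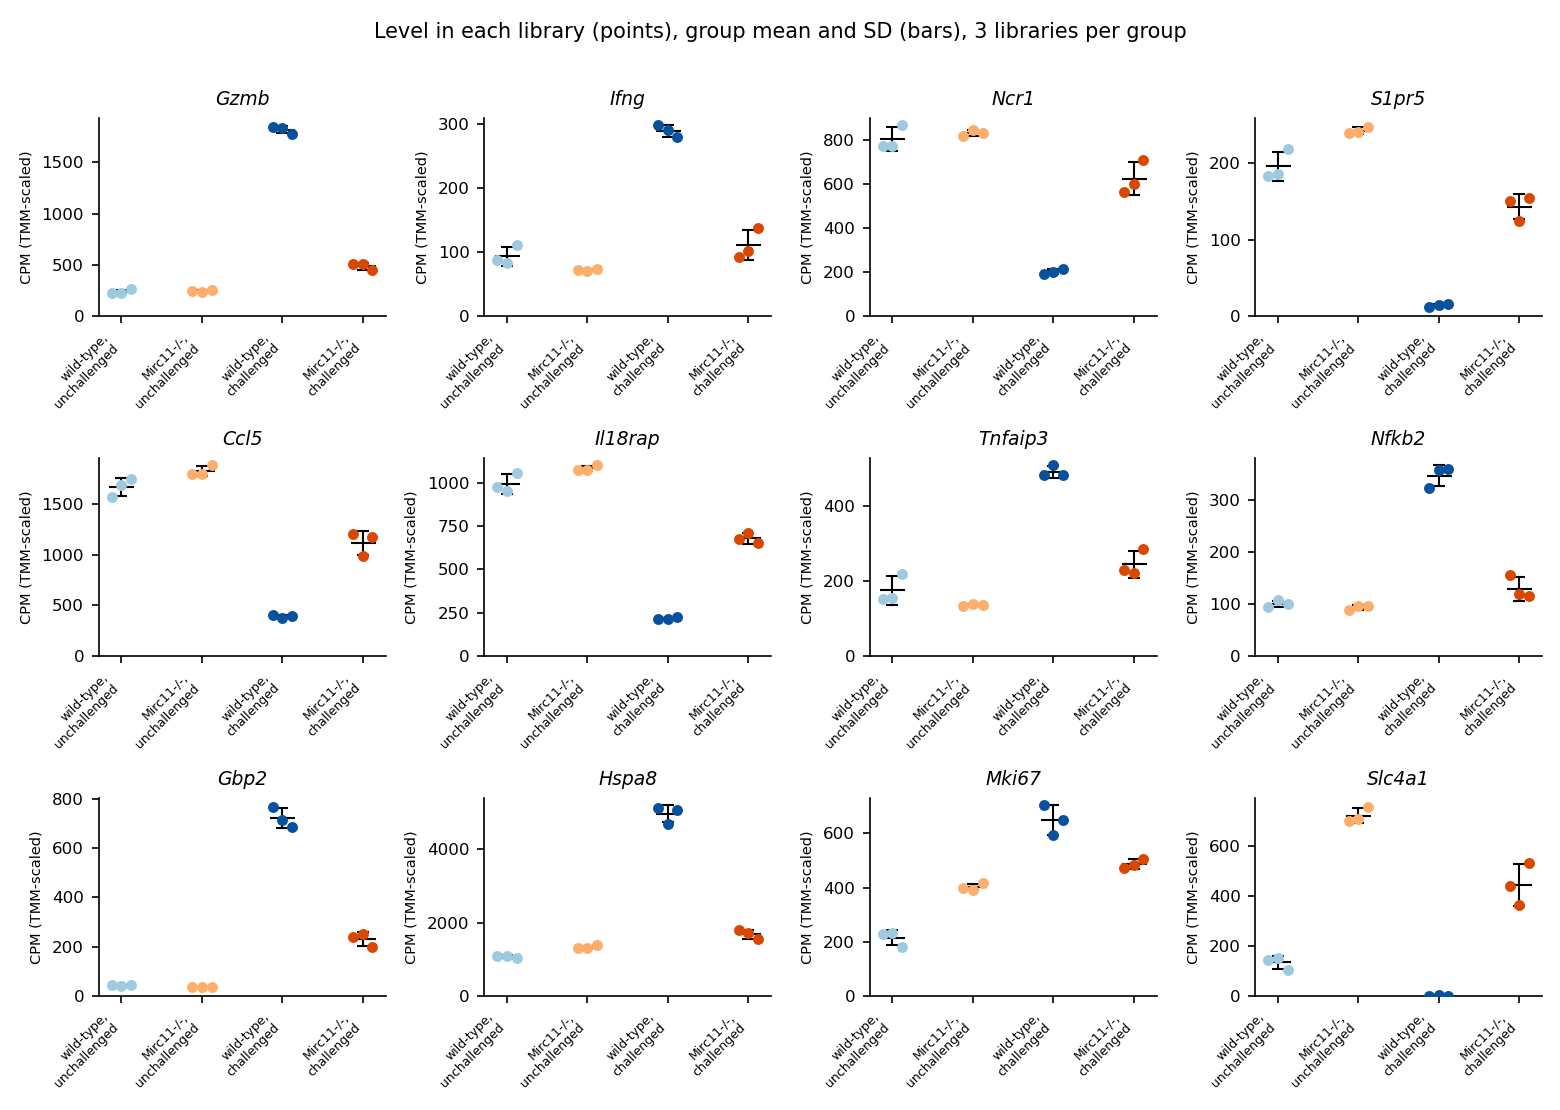
CPM (vertical axes, linear, from 0) of 12 genes in each of the 12 libraries, with bars for the mean and SD of the 3 libraries of a group; the 4 groups stand side by side in each panel. The challenged knockout libraries lie between the unchallenged groups and the challenged wild-type libraries for Gzmb, Ncr1, S1pr5, Ccl5 and Il18rap, and Slc4a1 is near 0 in the challenged wild-type libraries alone of the 4 groups.

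NK cell receptors and adaptors were mostly higher in the knockout: 31 of 41 were higher, 6 lower and 4 did not pass (median log2 difference 0.77; 29 higher and 5 lower without knockout replicate 3). Ncr1, which encodes the activating receptor NKp46, measured 192, 202 and 216 CPM in wild-type and 562, 600.3 and 707 CPM in knockout libraries (log2 1.62 ± 0.08, adjusted p = 9.44e-10). Klrb1c, the gene of NK1.1, measured 151, 153 and 160.0 CPM against 566, 596 and 622 CPM (log2 1.94 ± 0.06, adjusted p = 9.4e-12), and Klrk1, the gene of the stress-ligand receptor NKG2D, 271, 259 and 255 CPM against 651, 795 and 743 CPM (log2 1.48 ± 0.08, adjusted p = 1.32e-09). The wild-type libraries were the low ones for all of these, and the unchallenged libraries of both genotypes, at 897 to 996 CPM in wild-type and 913 to 932 CPM in knockout for Klrb1c, stood above both challenged groups. Klra8, the Ly49 receptor that recognises a cytomegalovirus protein, had a log2 difference of 1.50 ± 0.15, and Klrb1a, another NKR-P1 receptor, one of 1.85 ± 0.07. Members of these receptor families are similar in sequence, so the counts of single Klra and Klrb1 genes are uncertain. Against the direction stood Tigit, an inhibitory receptor for nectin-like ligands, at 55.5, 53.6 and 58.5 CPM in wild-type and 24.7, 22.4 and 18.1 CPM in knockout libraries (log2 -1.36 ± 0.11, adjusted p = 1.02e-07), and Sh2d1b2, a signalling adaptor of SLAM receptors (log2 -1.24 ± 0.13). Klrg1, an inhibitory receptor of mature NK cells, was lower too, at 41.3, 42 and 45.2 CPM against 79.5, 84.5 and 86.7 CPM (log2 -0.96 ± 0.06, adjusted p = 8.09e-09). Fcer1g, the adaptor chain of CD16 and NKp46, did not pass (log2 -0.06 ± 0.07, adjusted p = 0.529), with mean levels of 297 ± 12.9 CPM in wild-type and 286 ± 20.1 CPM in knockout libraries (SD, n = 3).

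The labelled cell type was checked against 9 NK cell markers (Ncr1, Klrb1c, Klrk1, Klrd1, Eomes, Tbx21, Gzma, Prf1 and Nkg7). Their summed level was 4110 to 4195 CPM in challenged wild-type and 5080 to 5660 CPM in challenged knockout libraries, against 6492 to 7499 and 7025 to 7203 CPM in unchallenged wild-type and knockout libraries. Of the 9, 6 were higher and 1, Prf1, was lower in the challenged knockout. The part that the share of NK cells in the preparations had in the receptor differences was not tested.

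Transcription factors of the NK lineage were higher for 18 of 27 members and lower for 4 (median log2 difference 0.54). Eomes, a T-box factor that maintains conventional NK cells, measured 128, 127 and 120.3 CPM in wild-type and 267, 273 and 313 CPM in knockout libraries (log2 1.19 ± 0.07, adjusted p = 7.09e-09). Its relative Tbx21, the gene of T-bet, measured 91.9, 102 and 100.3 CPM against 208, 172 and 193 CPM (log2 0.96 ± 0.07, adjusted p = 5.72e-08). Both were low in wild-type libraries, without overlap. Cd27, found on less mature mouse NK cells, and Itgam, the CD11b chain of more mature ones, were both higher, by 1.02 ± 0.08 and 0.67 ± 0.06 on the log2 scale. Prdm1 and Gata3, regulators of NK maturation, were higher by 0.51 ± 0.09 and 0.63 ± 0.07. Nfil3, a factor needed early in NK development, was lower at 40.1, 31 and 35.6 CPM in knockout against 84.2, 84.1 and 92.7 CPM in wild-type libraries (log2 -1.29 ± 0.10, adjusted p = 4.62e-08). The repressor gene Zeb1 was also lower (log2 -0.40 ± 0.06).

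Among 21 trafficking and adhesion genes, 15 were higher and 4 lower (median log2 difference 0.36). S1pr5, the sphingosine-1-phosphate receptor that lets NK cells leave bone marrow and lymph nodes, measured 12.6, 14.1 and 15.8 CPM in wild-type and 149.8, 124 and 154 CPM in knockout libraries (log2 3.33 ± 0.10, adjusted p = 9.4e-12). Wild-type libraries were far below all others, and the challenged knockout libraries were below the 239 to 247 CPM of the unchallenged knockout ones. Cx3cr1, the fractalkine receptor of mature NK cells and monocytes, measured 8.17, 6.72 and 6.81 CPM against 25.3, 24.7 and 30.6 CPM (log2 1.89 ± 0.10, adjusted p = 1.36e-09), and Itgax, the CD11c chain of mouse NK and dendritic cells, was higher by 1.55 ± 0.08. In the other direction stood Ccr7, the lymph node homing receptor, at 247, 255 and 268 CPM in wild-type and 87.3, 72.2 and 76.2 CPM in knockout libraries (log2 -1.71 ± 0.08, adjusted p = 3.85e-10). Cd69, an activation marker that opposes exit from tissues by binding S1PR1, was lower after challenge at 75, 109 and 114 CPM against 250.1, 233 and 191 CPM (log2 -1.18 ± 0.18, adjusted p = 2.83e-04) and also without it (log2 -0.74 ± 0.19, adjusted p = 0.0296).

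Receptors for the cytokines that activate NK cells divided by receptor. Of 22 tested, 10 were lower and 5 higher, with a median of -0.06 that became 0.01 under upper-quartile scaling. Il2ra, the high-affinity chain of the interleukin-2 receptor, measured 168, 161 and 154 CPM in wild-type and 33.2, 34.5 and 27.8 CPM in knockout libraries (log2 -2.34 ± 0.09, adjusted p = 6.65e-11). Il12rb2, a signalling chain for interleukin-12, measured 259, 217 and 223 CPM against 109, 106 and 118 CPM (log2 -1.07 ± 0.07, adjusted p = 1.02e-08). Both chains of the interleukin-18 receptor differed the other way. Il18rap stood at 215, 216 and 223 CPM in wild-type and 673, 712 and 650.2 CPM in knockout libraries (log2 1.64 ± 0.06, adjusted p = 3.55e-11), and Il18r1 was higher by 1.16 ± 0.06. Il1rl1, the interleukin-33 receptor of mast cells, basophils and innate lymphoid cells, was lower after challenge (log2 -1.22 ± 0.09) and higher without it (0.75 ± 0.10).

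Checkpoint and costimulatory genes had a median log2 difference of -1.51, with 17 of 21 lower and 2 higher. Cd274, which encodes PD-L1, measured 495, 501 and 468 CPM in wild-type and 142, 151 and 116 CPM in knockout libraries (log2 -1.84 ± 0.08, adjusted p = 1.73e-10). Cd86 and Cd80, the CD28 ligands of antigen-presenting cells, measured 146, 149 and 146 against 32.1, 31.6 and 26.8 CPM (log2 -2.28 ± 0.10, adjusted p = 1.25e-10) and 44.9, 43.2 and 39.9 against 5.13, 5.61 and 5.44 CPM (log2 -2.98 ± 0.16, adjusted p = 1.3e-09). Wild-type libraries were high and even for these genes, and the knockout libraries were all far below them. Tnfrsf9, the costimulatory receptor 4-1BB of activated lymphocytes, measured 201, 203 and 207 CPM against 56.6, 55.1 and 49 CPM (log2 -1.93 ± 0.06, adjusted p = 9.4e-12). The inhibitory receptor genes Pdcd1 (PD-1) and Ctla4 were lower after challenge (log2 -2.05 ± 0.13 and -1.84 ± 0.13) and without it (log2 -1.45 ± 0.22 and -1.15 ± 0.18, adjusted p = 3.42e-04 and 3.37e-04). Cd28, a costimulatory receptor of T cells, and Tnfsf14, the ligand LIGHT, were the members that were higher, by 0.64 ± 0.10 and 0.51 ± 0.12.

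Of 46 ubiquitin modifiers, 23 were lower, 7 higher and 16 did not pass, with a median log2 difference of -0.23. The counts were 22 lower and 5 higher without knockout replicate 3, and 20 lower and 11 higher under upper-quartile scaling. Without challenge 1 member was higher and 1 lower. Tnfaip3 encodes A20, which edits ubiquitin chains on TRAF6 and RIPK1 and is itself an NF-kB target, and it measured 482, 510.3 and 482 CPM in wild-type and 229, 221 and 286 CPM in knockout libraries (log2 -1.003 ± 0.13, adjusted p = 2.68e-05). Usp18, which removes the ubiquitin-like ISG15 and is induced by interferon, measured 266, 295 and 300.2 CPM against 87.7, 75.3 and 64.1 CPM (log2 -1.92 ± 0.10, adjusted p = 9.44e-10). Both were lower in every knockout library, and the interferon-induced ligase genes Trim25 and Dtx3l were lower, with log2 differences of -0.93 ± 0.07 and -0.93 ± 0.07 (knockout minus wild-type). Higher in the knockout were Cbl, a ligase that turns off receptor kinases, at 321, 344 and 319 CPM in wild-type and 564, 603 and 583 CPM in knockout libraries (log2 0.83 ± 0.06, adjusted p = 1.34e-08), and Usp20, a deubiquitinase that acts on TRAF6, at 17.5, 19.3 and 19 and 39.2, 30.6 and 38.3 CPM (log2 0.96 ± 0.09, adjusted p = 4.26e-07). Other regulators of TRAF6 signalling differed little. The deubiquitinase gene Cyld had 188 ± 8.49 CPM in wild-type and 159 ± 12.8 CPM in knockout libraries (mean ± SD, n = 3; log2 -0.24 ± 0.07, adjusted p = 0.0136), a call lost under upper-quartile scaling (adjusted p = 0.0825). The ligase gene Cblb had 189.8 ± 6.77 and 161 ± 5.8 CPM (log2 -0.23 ± 0.05, adjusted p = 0.00228). The ligase gene Itch had 115 ± 10.6 and 134 ± 16 CPM with overlapping libraries (log2 0.21 ± 0.10, adjusted p = 0.0888), and passed as higher under upper-quartile scaling (log2 0.29, adjusted p = 0.0263) and without knockout replicate 1 (log2 0.30, adjusted p = 0.0196).

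Adaptors and kinases carry signals from receptors to NF-kB. Among 25 genes of the MyD88, IRAK, TRAF and TAK1 pathway, 16 were lower and 1 higher (median log2 difference -0.30; 15 and 2 without knockout replicate 3, 12 and 3 under upper-quartile scaling). Traf6, the ubiquitin ligase at the centre of the pathway, measured 96.7, 88.2 and 89.4 CPM in wild-type and 74, 78.6 and 83.5 CPM in knockout libraries (log2 -0.22 ± 0.07, adjusted p = 0.0151). The difference was small, and its call was lost under upper-quartile scaling and without wild-type replicate 1 or knockout replicate 1 (adjusted p = 0.0994, 0.0661 and 0.0511). Traf1, an adaptor induced by NF-kB, measured 469.9, 491 and 509 CPM against 229.7, 199 and 194 CPM (log2 -1.24 ± 0.07, adjusted p = 1.4e-09). Map3k14, the kinase NIK of the alternative NF-kB pathway, and Irak3, an inhibitor of the pathway, had log2 differences of -0.93 ± 0.09 and -0.83 ± 0.09, so an activator and an inhibitor were both lower.

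NF-kB subunits and their inhibitors were lower together, 10 of 13 tested with 0 higher (median log2 difference -0.93). Nfkb2, which encodes the p100 precursor, measured 324, 358 and 359 CPM in wild-type and 157, 119 and 115 CPM in knockout libraries (log2 -1.42 ± 0.10, adjusted p = 2.54e-08). Nfkbia, the gene of the inhibitor IkB-alpha and an early NF-kB target, measured 374, 409 and 396 CPM against 220.1, 181 and 185 CPM (log2 -1.01 ± 0.08, adjusted p = 4.49e-08). In both, knockout replicate 1 was the highest of its group, and all challenged knockout libraries stood above the unchallenged knockout ones (88.1 to 96.3 CPM for Nfkb2). The inhibitor genes Nfkbie and Nfkbiz had log2 differences of -1.21 ± 0.09 and -0.93 ± 0.07, and the p105 gene Nfkb1 one of -0.60 ± 0.06. Rela, the p65 subunit, differed less with overlapping libraries (log2 -0.27 ± 0.09, adjusted p = 0.0163), and its call was lost under upper-quartile scaling (adjusted p = 0.0601) and without wild-type replicate 3 or knockout replicate 2 (adjusted p = 0.0716 and 0.115).

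AP-1 and related leucine zipper genes had 12 of 19 members lower and 1 higher (median log2 difference -0.37; 11 lower without knockout replicate 3, 10 lower and 3 higher without knockout replicate 2, 9 and 3 under upper-quartile scaling). Atf3, a stress-induced repressor of cytokine genes, measured 32.2, 35.3 and 33.1 CPM in wild-type and 9.12, 9.73 and 8.17 CPM in knockout libraries (log2 -1.90 ± 0.16, adjusted p = 1.21e-07). Batf2, an interferon-induced BATF relative, measured 28.5, 31.4 and 25.2 against 9.62, 8.06 and 5.86 CPM (log2 -1.85 ± 0.16, adjusted p = 2.64e-07). Fosl2, a Fos relative, was at 149, 162 and 171 CPM in wild-type and 85.2, 77.5 and 79.5 CPM in knockout libraries (log2 -0.99 ± 0.08, adjusted p = 8.96e-08), although it was higher in the knockout without challenge (log2 0.32 ± 0.08). Jun was lower in both settings, at log2 -0.51 ± 0.09 after challenge and -0.64 ± 0.09 without it (adjusted p = 2.82e-04 and 1.98e-04). Fos had 424, 436 and 381 CPM and 324, 289.8 and 407 CPM (log2 -0.28 ± 0.10, adjusted p = 0.0262), with knockout replicate 3 inside the wild-type range. Its call was lost under upper-quartile scaling (adjusted p = 0.0877) and without wild-type replicate 1 or 2 or knockout replicate 1 or 2 (adjusted p = 0.0706, 0.0974, 0.0879 and 0.177). Atf7 was the member that was higher (log2 0.37 ± 0.05).

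MAP kinase genes (11 lower and 4 higher of 24; 11 and 3 without knockout replicate 3) and early-response genes (12 lower and 7 higher of 26) had medians of -0.16 and -0.10, the latter turning to 0.02 without knockout replicate 2. Map3k8, the kinase Tpl2 that links NF-kB p105 to ERK, had a log2 difference of -0.70 ± 0.08. The kinase genes Map2k1 and Mapkapk2 had -0.68 ± 0.06 and -0.64 ± 0.08. Nr4a3, an orphan nuclear receptor induced by antigen and cytokine signals, measured 143, 131 and 127 CPM in wild-type and 25.9, 29.4 and 24.2 CPM in knockout libraries (log2 -2.33 ± 0.08, adjusted p = 1.92e-11). The challenged knockout libraries stood only a few CPM above the unchallenged knockout range of 18.5 to 20.5 CPM. Myc, a driver of growth in activated lymphocytes, measured 211, 199 and 202 against 129, 108 and 124 CPM (log2 -0.76 ± 0.07, adjusted p = 3.06e-07). The kinase gene Sgk1 and the antiproliferative gene Btg2 were higher, by 0.84 ± 0.12 and 0.71 ± 0.09.

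Sites of the 3 microRNAs were looked for in the longest 3′ UTR of 13105 tested genes (GENCODE vM21), on the transcript strand, as the 7 letters that pair with the seed: AATGTGA for miR-23a-3p, ACTGTGA for miR-27a-3p and CTGAGCC for miR-24-3p. Sites in genes of the ubiquitin, TRAF, NF-kB and AP-1 lists are shown because these genes carry the study's question, as examples chosen after the values were seen. Capitals mark the seed match, and the position is that of its first letter in the UTR.
Tnfaip3, miR-23a-3p, position 1670 of 1824: ttgattttcattgttAATGTGAaa
Tnfaip3, miR-27a-3p, position 62 of 1824: gccattcacagtggtACTGTGAtc
Tnfaip3, miR-24-3p, position 334 of 1824: gactggcagcagttcCTGAGCCtg
Usp20, miR-27a-3p, position 1100 of 2105: ttagctcattgcactACTGTGAcg
Cbl, miR-24-3p, position 4520 of 8472: gaagccagtcaggaaCTGAGCCtg
Cblb, miR-23a-3p, position 2929 of 3359: tgcagagctcttcatAATGTGAac
Itch, miR-27a-3p, position 98 of 2392: ttattgtaaacttggACTGTGAct
Traf6, miR-24-3p, position 2198 of 4173: ttgagaagcccagtgCTGAGCCac
Traf1, miR-23a-3p, position 466 of 2126: gaagggtcagacattAATGTGAat
Nfkb2, miR-24-3p, position 535 of 637: actcctggcttctgtCTGAGCCag
Atf3, miR-24-3p, position 686 of 1189: ctggctgatgaccagCTGAGCCac
Atf7, miR-24-3p, position 46 of 5588: ccagagctcgcccgcCTGAGCCaa
Tnfaip3, with a site for each of the 3 microRNAs, was lower in the knockout, as were Traf6, Traf1, Nfkb2, Atf3 and Cblb, whereas Usp20, Cbl and Atf7 were higher and Itch did not pass. Cbl also has 2 sites for miR-23a-3p. Wwp1, Otud7b and Peli2, further ubiquitin modifiers with sites that are not shown, were higher too (log2 0.74, 0.22 and 0.59, adjusted p = 0.00136, 0.00797 and 0.0195) and were chosen after their values were seen. Other modifiers with sites that are not shown were lower, Cyld among them (log2 -0.24, adjusted p = 0.0136). Of all 18 ubiquitin modifiers with a site, 5 were higher and 8 lower. The whole list had 7 higher members, against 5 without knockout replicate 3. It had 4 in a fit of the 6 challenged libraries with the replicate number as a block. The counts by site were not repeated under these alternatives. A match is a description of the letters and does not show that a site is used.

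Counted over the lists, 18 of 46 ubiquitin modifiers had a site and 28 had none. Over all genes with a 3′ UTR, 7841 of 13105 had none. Of the 18 modifiers with a site 5 were higher and 8 lower, against 2 higher and 15 lower among the 28 without one. In the MyD88 to TAK1 list 12 of 25 genes had a site, with 0 higher and 8 lower. In the NF-kB list 5 of 13 had a site, with 0 higher and 4 lower, and in the AP-1 list 9 of 19, with 1 higher and 5 lower. Over all genes with a 3′ UTR, 22.3% were higher and 29.9% lower. Genes with a miR-23a-3p site were higher in 28% and lower in 24.7%, those with a miR-27a-3p site in 27.3% and 27.2%, and those with a miR-24-3p site in 26% and 27.2%. The median log2 difference after challenge was 0.047 with and -0.058 without a miR-23a-3p site. It was 0.033 and -0.055 for miR-27a-3p, and 0.001 and -0.053 for miR-24-3p. Without challenge the same pairs of medians were -0.024 and -0.006, -0.013 and -0.008, and -0.002 and -0.010. The 7841 genes without any site were higher in 19.7% and lower in 31.8%. UTR length moved with both measures: among the genes with the longest UTRs of 3 equal groups, 28.9% of those with a site and 26.6% of those without were higher, and 24.2% of both were lower. In the middle group the shares were 23.6% and 19.6% higher and 29.5% and 30.5% lower. Among the genes with the shortest UTRs the shares were 18.8% and 17.3% higher and 34.4% and 35.4% lower. The part of UTR length in the difference between genes with and without a site was not tested beyond these shares.

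Genes of the JAK, STAT, IRF and SOCS families were lower for 16 of 25 members and higher for 2 (median log2 difference -0.72). Stat2, a transcription factor below the type I interferon receptor, had a log2 difference of -1.28 ± 0.06, and Stat3, the factor below interleukin-6 and interleukin-10 receptors, one of -1.22 ± 0.06. Irf1, an interferon-gamma target that activates further genes, measured 557, 560.4 and 597 against 350.3, 308 and 296 CPM (log2 -0.85 ± 0.07, adjusted p = 7.19e-08), without overlap. The feedback inhibitors Socs1, Socs2 and Socs3 were lower as well, with log2 differences of -1.31 ± 0.12, -1.74 ± 0.09 and -0.72 ± 0.12. The kinase genes Jak1, at 711, 657 and 671 CPM in wild-type and 1146, 1196 and 1234 CPM in knockout libraries (log2 0.81 ± 0.06, adjusted p = 4.62e-08), and Tyk2 (log2 0.38 ± 0.08) were the members that were higher.

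Interferon-stimulated antiviral genes were lower for 47 of 48 tested, with 0 higher and a median log2 difference of -1.21. Without challenge 7 were higher and 5 lower. Isg15, a ubiquitin-like modifier, measured 336, 373 and 372 CPM in wild-type and 134, 112 and 94.8 CPM in knockout libraries (log2 -1.67 ± 0.10, adjusted p = 5.22e-09). It was higher in the knockout without challenge, at 26, 28 and 30.2 CPM against 14.1, 13.9 and 15.2 CPM (log2 0.96 ± 0.11, adjusted p = 3.23e-05), so the groups exchanged places. Oasl1, an oligoadenylate synthetase-like inhibitor of interferon production, and Zbp1, a sensor of nucleic acids, had log2 differences of -1.93 ± 0.10 and -1.47 ± 0.07, and Slfn5, a Schlafen protein, one of -1.45 ± 0.08. The member that did not pass was Sp100, a nuclear body protein (log2 -0.08 ± 0.06, adjusted p = 0.27).

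Guanylate-binding proteins and immunity-related GTPases, which act on vacuoles that hold bacteria and are induced by interferon-gamma, were lower for 19 of 20 members (median log2 difference -1.28). Gbp2 measured 767, 713 and 685 CPM in wild-type and 238, 253 and 199.7 CPM in knockout libraries (log2 -1.65 ± 0.08, adjusted p = 5.12e-10). The knockout libraries stayed well below the wild-type ones and several-fold above the 36.9 to 37.9 CPM of unchallenged knockout libraries. Its relative Gbp5 and the GTPase genes Tgtp1 and Irgm1 had log2 differences of -1.64 ± 0.08, -1.76 ± 0.10 and -1.40 ± 0.07. These genes have close relatives in the same clusters, so counts of a single one are uncertain. Gbp2b was the member that did not pass, at 12, 11.8 and 10.6 CPM in wild-type and 11.6, 13.4 and 9.37 CPM in knockout libraries with overlap (adjusted p = 0.996).

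Promoters of some of these genes are shown with motifs named for interferon and NF-kB responses, because most genes of the interferon and NF-kB lists were lower; Tnfaip3, a ubiquitin modifier, is included as an NF-kB target. Each window runs from 250 bases before to 50 after the start site (RefSeq, GRCm38.p6), read on the gene's strand, with matches on either strand in capitals. The motifs are GAAANNGAA (a core of the interferon-stimulated response element, ISRE), TTCNNNGAA (a gamma-activated site, GAS) and GGGNNTTCC (an NF-kB core). The windows are chr3:142620413-142620712 (+) for Gbp2, chr4:156200769-156201068 (-) for Isg15, chr11:53769764-53770063 (+) for Irf1, chr19:46304487-46304786 (+) for Nfkb2 and chr10:19015361-19015660 (-) for Tnfaip3.
Gbp2 promoter: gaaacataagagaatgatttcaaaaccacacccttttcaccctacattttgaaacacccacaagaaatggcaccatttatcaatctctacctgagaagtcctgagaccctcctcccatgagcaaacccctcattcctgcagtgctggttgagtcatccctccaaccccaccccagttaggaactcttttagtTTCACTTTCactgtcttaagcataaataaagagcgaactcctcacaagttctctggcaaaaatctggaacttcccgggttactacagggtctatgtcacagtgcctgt
Isg15 promoter: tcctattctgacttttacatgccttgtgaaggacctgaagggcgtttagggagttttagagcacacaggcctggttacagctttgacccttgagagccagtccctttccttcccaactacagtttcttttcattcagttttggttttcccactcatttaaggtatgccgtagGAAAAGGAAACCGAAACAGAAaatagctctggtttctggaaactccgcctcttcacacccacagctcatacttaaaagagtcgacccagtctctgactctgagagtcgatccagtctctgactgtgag
Irf1 promoter: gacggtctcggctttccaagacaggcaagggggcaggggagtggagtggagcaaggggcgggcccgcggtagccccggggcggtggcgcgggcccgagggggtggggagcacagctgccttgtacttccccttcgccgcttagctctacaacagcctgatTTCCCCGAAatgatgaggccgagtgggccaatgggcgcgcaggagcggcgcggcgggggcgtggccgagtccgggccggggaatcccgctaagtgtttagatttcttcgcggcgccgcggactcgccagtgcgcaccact
Nfkb2 promoter: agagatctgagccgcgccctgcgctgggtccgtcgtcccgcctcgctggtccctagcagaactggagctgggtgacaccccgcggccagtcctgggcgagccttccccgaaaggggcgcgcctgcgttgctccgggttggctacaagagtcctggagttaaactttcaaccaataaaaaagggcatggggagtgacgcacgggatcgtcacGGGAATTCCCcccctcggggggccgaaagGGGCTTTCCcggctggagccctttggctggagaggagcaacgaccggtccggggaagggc
Tnfaip3 promoter: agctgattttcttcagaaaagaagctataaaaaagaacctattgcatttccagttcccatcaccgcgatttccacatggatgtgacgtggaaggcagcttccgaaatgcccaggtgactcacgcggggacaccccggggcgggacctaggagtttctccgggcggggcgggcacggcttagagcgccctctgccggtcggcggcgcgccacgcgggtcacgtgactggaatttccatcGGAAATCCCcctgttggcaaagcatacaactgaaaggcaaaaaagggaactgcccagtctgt
Gbp2 has 1 match to GAAANNGAA, starting at -58 from the start site, and Isg15 has 3, the first at -78. Irf1 has 1 match to TTCNNNGAA at -90. Nfkb2 has 3 matches to GGGNNTTCC from -39 on, and Tnfaip3 1 at -12. The windows of Irf1, Nfkb2 and Tnfaip3 are the first of 2, 3 and 2 listed for these genes.

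**Figure D3:**
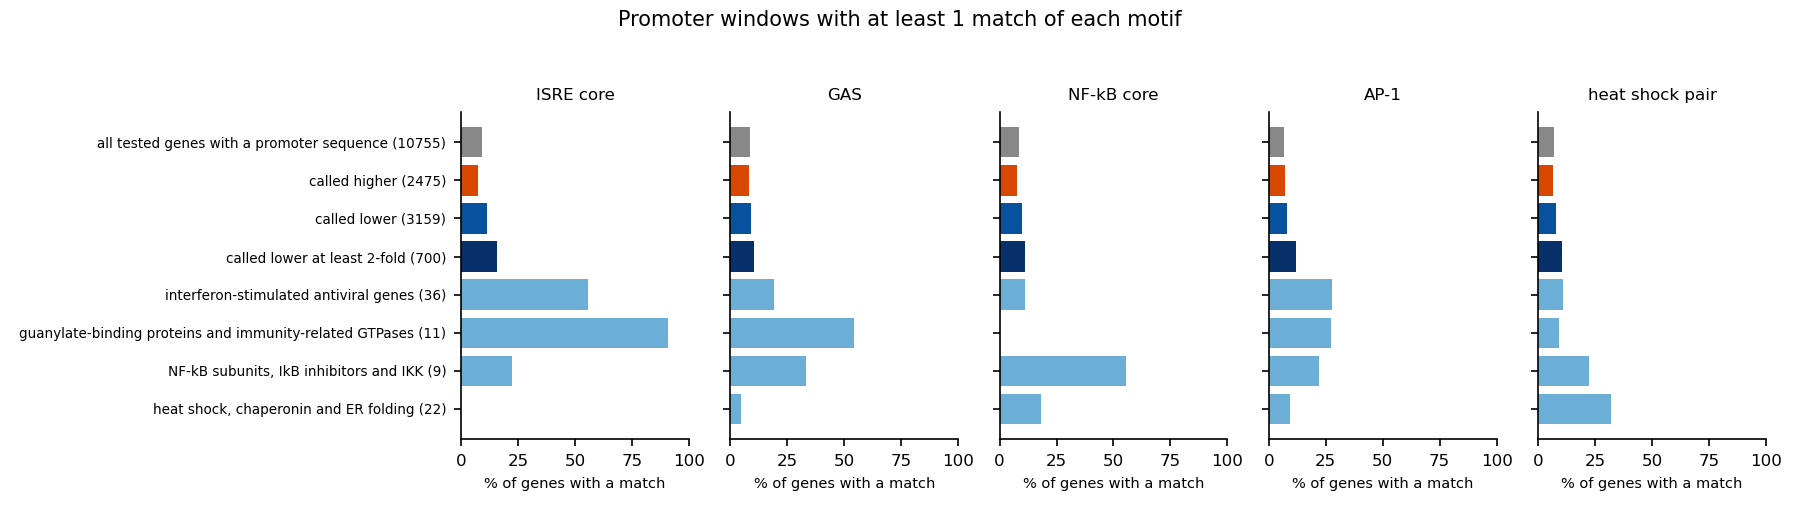
Percentage of promoter windows of 300 bases (horizontal axes, 0 to 100) that hold each motif, for all tested genes with a window, for genes called lower or higher and for single lists. GAAANNGAA (ISRE core) was found in 9.2% of all windows, in 55.6% of those of interferon-stimulated antiviral genes and in 90.9% of those of guanylate-binding proteins and immunity-related GTPases.

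Windows were available for 10755 tested genes, and a gene was counted if any of its windows held a match. GAAANNGAA was in 9.2% of these genes, in 11.4% of genes called lower, in 7.47% of genes called higher and in 15.9% of genes called lower by at least 2-fold. It was in 20 of 36 interferon-stimulated antiviral genes and in 10 of 11 guanylate-binding proteins and immunity-related GTPases. TTCNNNGAA was in 8.59% of all genes with a window and in 6 of those 11. GGGNNTTCC was in 8.47% of all genes with a window, in 11.3% of genes called lower by at least 2-fold and in 5 of 9 of the NF-kB list. Motifs of AP-1 (TGANTCA) and of heat shock factor (GAANNTTC) were in 6.53% and 7.14% of all genes with a window and in 11.9% and 10.6% of genes called lower by at least 2-fold. GAAANNGAA was also in 9 of 24 cytosolic ribosomal protein genes (37.5%), a list in which a smaller share than the background was lower. These shares describe letters in fixed windows, and the interferon lists were chosen as known interferon targets, so their share is not independent of the choice.

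Antigen presentation genes were lower throughout the class I pathway, 22 of 22 tested (median log2 difference -0.78), and for 10 of 11 in the class II pathway (median -0.57). H2-T22, a non-classical class I gene with close relatives, measured 508, 557 and 566 CPM in wild-type and 294, 263 and 237 CPM in knockout libraries (log2 -1.04 ± 0.07, adjusted p = 2.0e-08). Nlrc5, the transactivator of class I genes, had a log2 difference of -1.01 ± 0.08, and Calr and Pdia3, chaperones of class I assembly, had -1.05 ± 0.06 and -0.96 ± 0.06. For class II, the protease gene Ctss was at 436, 417 and 367 CPM in wild-type and 224, 243 and 202 CPM in knockout libraries (log2 -0.87 ± 0.07, adjusted p = 1.89e-07). The invariant chain gene Cd74 and the class II gene H2-Aa had log2 differences of -0.66 ± 0.08 and -0.57 ± 0.07, and were lower without challenge as well (-0.38 ± 0.08 and -0.29 ± 0.07). Summed B cell markers, a major source of class II transcripts in spleen, were at 8089 to 8661 CPM in challenged wild-type and 5216 to 5820 CPM in challenged knockout libraries, and their part in the class II differences was not tested.

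Inflammatory caspases, sensors and death genes were lower for 25 of 38 members and higher for 4 (median log2 difference -0.56). Bcl2a1b and Bcl2a1d, near-identical survival genes induced by NF-kB whose counts are therefore uncertain, had log2 differences of -1.49 ± 0.10 and -1.79 ± 0.12. Il18bp, a decoy that neutralises interleukin-18, measured 80.6, 80.0 and 73.9 CPM in wild-type and 33, 30.1 and 25.3 CPM in knockout libraries (log2 -1.41 ± 0.10, adjusted p = 2.93e-08). Mlkl, the executioner of necroptosis, was lower, with a log2 difference of -1.23 ± 0.09, whereas the apoptosis trigger gene Bbc3 and the bacterial sensor gene Naip5 were higher, by 0.99 ± 0.16 and 0.59 ± 0.12. Of 15 p53 and stress targets, 9 were lower and 4 higher (8 and 3 without knockout replicate 3). Cdkn1a, which encodes the cell-cycle inhibitor p21, measured 82.7, 104 and 98 CPM in wild-type and 22.6, 19.1 and 15.4 CPM in knockout libraries (log2 -2.31 ± 0.14, adjusted p = 5.81e-09). The knockout libraries were all below the wild-type ones by a wide margin, and the growth-arrest genes Gadd45b and Gadd45g had log2 differences of -1.67 ± 0.12 and -1.41 ± 0.13.

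Mitosis genes were lower after challenge although they had been higher without it. All 24 mitosis genes passed as lower in the challenged knockout (median log2 difference -0.55), and 23 of them passed as higher in the unchallenged knockout (median 0.60). Top2a, a topoisomerase of dividing cells, measured 499.6, 431 and 457 CPM in challenged wild-type and 239.6, 257 and 229.7 CPM in challenged knockout libraries (log2 -0.94 ± 0.09, adjusted p = 1.12e-06), against 114, 107 and 83.1 CPM and 135, 132 and 128 CPM without challenge (log2 0.37 ± 0.10). Mki67, the proliferation marker Ki-67, measured 705, 593 and 647 against 471, 483 and 506 CPM after challenge (log2 -0.41 ± 0.09, adjusted p = 9.83e-04) and 228, 232 and 183 against 400.0, 392 and 416 CPM without it (log2 0.91 ± 0.09). For both, the unchallenged knockout libraries were above the unchallenged wild-type ones and the order was exchanged after challenge. The interaction term of Mki67 was -1.32 ± 0.12, adjusted p = 9.84e-07. Among 30 DNA replication genes 27 were lower (25 without knockout replicate 3), with Pcna, the sliding clamp, at log2 -0.51 ± 0.06 and Cdc45, a helicase component, at -0.79 ± 0.09. Without challenge 6 of the 30 were higher and 24 did not pass (median 0.12).

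Heat shock and folding genes were lower for 27 of 28 members (median log2 difference -0.86). Hspa8, the constitutive Hsp70 chaperone, measured 5117, 4695 and 5074 CPM in wild-type and 1788, 1715 and 1556 CPM in knockout libraries (log2 -1.56 ± 0.07, adjusted p = 1.69e-10), so its groups were far apart at a high level. Hsph1, a partner of Hsp70, had a log2 difference of -1.44 ± 0.07, and Hspa5, the endoplasmic reticulum chaperone BiP, one of -0.97 ± 0.06. Glycolysis and hypoxia genes were lower for 19 of 23 and higher for 2 (median -0.75; 18 lower without knockout replicate 3). Ndrg1, a hypoxia-induced gene, measured 238, 233 and 255 CPM in wild-type and 57.5, 53.9 and 52.3 CPM in knockout libraries (log2 -2.15 ± 0.06, adjusted p = 6.23e-12). Pfkfb3, which makes an activator of glycolysis, and the glycolytic enzyme genes Gapdh and Ldha had log2 differences of -1.62 ± 0.08, -1.05 ± 0.07 and -0.80 ± 0.08. The glucose transporter gene Slc2a3 and the kinase gene Pdk1, which restrains pyruvate oxidation, were the members that were higher, by 0.37 ± 0.06 and 0.31 ± 0.08.

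Mitochondrial and protein synthesis genes differed by less. Of 29 oxidative phosphorylation genes 22 were lower (median log2 difference -0.27; 17 without knockout replicate 3), with the respiratory chain gene Cox5a at -0.50 ± 0.07 and the ATP synthase gene Atp5b at -0.42 ± 0.06. ATF4 targets were lower for 18 of 23 (16 without knockout replicate 3), among them Mthfd2, a mitochondrial folate enzyme, at 57.4, 56.1 and 61.3 CPM in wild-type and 27.5, 27.8 and 26.4 CPM in knockout libraries (log2 -1.10 ± 0.10, adjusted p = 3.17e-07). All 27 proteasome subunits were lower, within a narrow range around a median of -0.48, with Psmb2 and Psma1 at -0.61 ± 0.06 and -0.60 ± 0.06. Ribosome biogenesis genes were lower for 19 of 24 (median -0.30; 16 without knockout replicate 3), including Nolc1 and Nop56, nucleolar factors, at -0.48 ± 0.07 and -0.40 ± 0.06. Cytosolic ribosomal protein genes were lower for 7 of 34 (median -0.15), a count that ran from 2 to 20 when single challenged libraries were left out (2 without wild-type replicate 3, 15 without wild-type replicate 1, 20 without knockout replicate 1 and 3 without knockout replicate 2 or 3). Under upper-quartile scaling the numbers lower were 16 for oxidative phosphorylation, 14 for ribosome biogenesis and 3 for cytosolic ribosomal protein genes. Sterol genes were lower for 7 and higher for 4 of 23 (6 and 4 without knockout replicate 3), or 30.4% and 17.4% against 26.2% and 22.7% of all genes, with Mylip, an LXR-induced ligase for the LDL receptor, at 78.3, 69.3 and 68.2 CPM in wild-type and 142, 142 and 155 CPM in knockout libraries (log2 1.03 ± 0.07, adjusted p = 1.42e-08).

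Markers of other cells, which negative selection can leave behind, also differed. Of 23 neutrophil markers 17 were lower and 5 higher in the challenged knockout. The counts were 15 and 5 without knockout replicate 3, and the number higher fell to 2 without wild-type replicate 1 or knockout replicate 1 or 2, and to 3 without wild-type replicate 3 or under DESeq2. The sum of the markers was 2528 to 3038 CPM in wild-type and 1207 to 1721 CPM in knockout libraries. Without challenge the order was the reverse, 120 to 121 CPM in wild-type and 588 to 611 CPM in knockout libraries, and 17 markers were higher. S100a8, an abundant neutrophil alarmin subunit, measured 479, 557 and 413 CPM in wild-type and 259, 304 and 185 CPM in knockout libraries (log2 -0.95 ± 0.16, adjusted p = 3.68e-04). Lcn2, an iron-withholding protein, was at 333, 345 and 285 and 171, 144 and 118 CPM (log2 -1.15 ± 0.13, adjusted p = 8.58e-06), while Camp and Mpo, made in immature neutrophils, were higher at 1.03 ± 0.18 and 0.66 ± 0.11 on the log2 scale.

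Macrophage and monocyte markers were lower for 16 of 23 and higher for 5 (12 and 5 without knockout replicate 3 or under upper-quartile scaling). Nos2, the inducible nitric oxide synthase of activated macrophages, measured 61.2, 77.2 and 55.9 CPM in wild-type and 25.5, 19.2 and 15.7 CPM in knockout libraries (log2 -1.68 ± 0.17, adjusted p = 2.64e-06). Mpeg1, a pore protein of phagocytes, and the lysosomal marker Cd68 had log2 differences of -0.78 ± 0.09 and -0.87 ± 0.09. Cd163 and Mrc1, scavenger receptors of resident macrophages, were higher, by 1.04 ± 0.12 and 0.90 ± 0.09. Dendritic cell markers divided evenly, 7 higher and 7 lower of 17. Siglech, a marker of plasmacytoid dendritic cells, measured 1.23, 1.31 and 1.69 CPM in wild-type and 30.9, 33.8 and 29.8 CPM in knockout libraries (log2 4.48 ± 0.14, adjusted p = 7.72e-12), whereas Zbtb46, a factor of conventional dendritic cells, measured 43.6, 45.8 and 49.8 and 16.7, 16.3 and 12.1 CPM (log2 -1.62 ± 0.10, adjusted p = 9.33e-09).

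T cell markers were higher for 14 of 16 after challenge (13 without knockout replicate 3) and lower for 1, Ctla4. They were lower for 10 without it (median log2 differences 0.59 and -0.58). Cd4 and Cd8b1, coreceptors of helper and killer T cells, had 17.2, 17.3 and 16.4 against 29.3, 27.9 and 32 CPM (log2 0.81 ± 0.08, adjusted p = 6.82e-07) and 10.6, 10.3 and 10.6 against 18.5, 20.3 and 22.1 CPM (log2 0.95 ± 0.10, adjusted p = 1.02e-06). Both were higher in every knockout library, at low levels. B cell markers were lower for 11 and higher for 3 of 20 after challenge (10 and 2 without knockout replicate 3, 8 and 3 under upper-quartile scaling), and lower for 19 without it. After challenge Ighm, the IgM heavy chain, was at 5010.5, 5289 and 4831 CPM in wild-type and 2977, 2548 and 2504 CPM in knockout libraries (log2 -0.91 ± 0.09, adjusted p = 5.4e-07). Fcer2a, the CD23 receptor of follicular B cells, was higher after challenge (log2 1.84 ± 0.13) and lower without it (-0.69 ± 0.12). Igha, the IgA heavy chain, was higher in both (log2 1.75 ± 0.15 and 2.93 ± 0.16), at 193 to 262 CPM in challenged wild-type and 570.4 to 863 CPM in challenged knockout libraries.

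**Figure D4:**
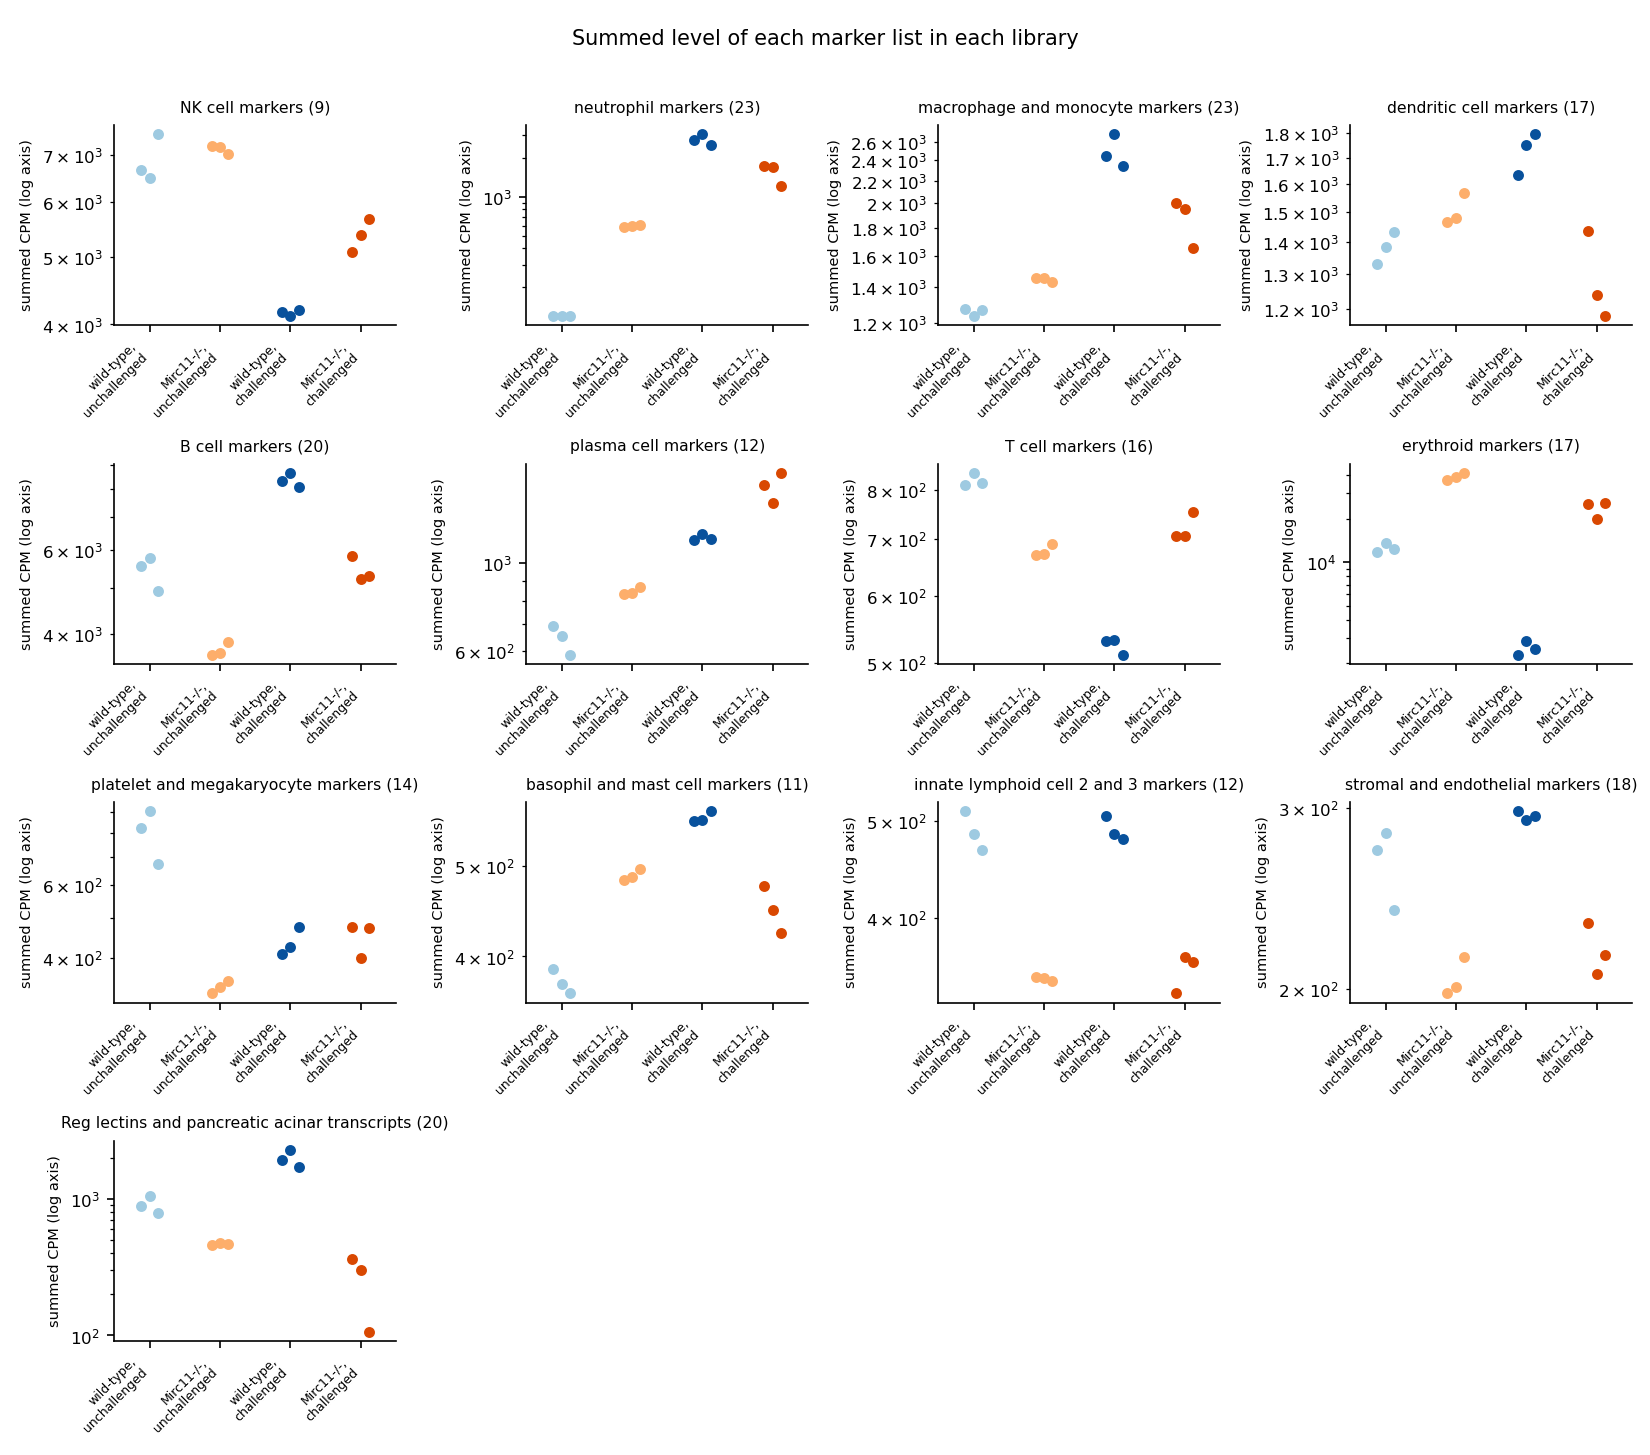
Summed CPM of each cell-type marker list (log10 axis) in each of the 12 libraries, by group. Erythroid sums are 2282 to 2861 CPM in challenged wild-type and 19909 to 25573 CPM in challenged knockout libraries, and the Reg and pancreatic sums of challenged knockout libraries lie below those of the other groups.

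Red-cell genes were among those with the largest differences. All 17 erythroid markers were higher after challenge (16 without knockout replicate 3) and all 17 without it (median log2 differences 3.27 and 1.64). Slc4a1, the anion exchanger band 3, measured 2.06, 3.04 and 1.97 CPM in challenged wild-type and 439, 364 and 531 CPM in challenged knockout libraries (log2 7.56 ± 0.23, adjusted p = 2.29e-10). Rhd, a Rhesus blood group protein, and Epb42, a membrane skeleton protein, had log2 differences of 6.87 ± 0.22 and 6.48 ± 0.19. Hba-a1, an alpha globin which shares near-identical sequence with Hba-a2, measured 458, 540.3 and 464 CPM against 5701, 4494 and 6198 CPM (log2 3.49 ± 0.12, adjusted p = 1.56e-11). Challenged wild-type libraries were the lowest of all 4 groups for these genes. Btnl10, an erythroid butyrophilin-like gene, had the largest difference under the naming rule, with 8 counts over the 3 wild-type libraries and 21.2 to 32.2 CPM in knockout libraries (log2 7.66 ± 0.32). Not all large differences were of red-cell genes: Apol8, Cd209a, a lectin of dendritic cells and monocytes, and Cyp17a1, a steroid-synthesis enzyme, had log2 differences of 6.88 ± 0.38, 6.23 ± 0.36 and 5.19 ± 0.32. Trim10 and Slfn14, genes of red-cell and platelet formation, had 5.86 ± 0.26 and 5.02 ± 0.22.

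Platelet markers were higher for 10 of 14 after challenge and lower for all 14 without it. Their summed level overlapped after challenge, at 409 to 476 CPM in wild-type and 401 to 475 CPM in knockout libraries. Without challenge it was 673 to 901 CPM in wild-type and 329 to 352 CPM in knockout libraries. Tubb1, the platelet beta-tubulin, measured 12.3, 12.2 and 15.3 CPM in challenged wild-type and 47.8, 37.8 and 43.3 CPM in challenged knockout libraries (log2 1.70 ± 0.12, adjusted p = 2.81e-08), against 76.7, 88 and 65.9 and 32.2, 33.3 and 30.3 CPM without challenge (log2 -1.27 ± 0.11). For Tubb1 the challenged wild-type libraries were the lowest and the unchallenged wild-type ones the highest. Gp6, the collagen receptor, and Vwf, von Willebrand factor, had log2 differences of 1.50 ± 0.16 and 1.10 ± 0.16 after challenge and -1.61 ± 0.15 and -1.49 ± 0.15 without it. Itgb3, an integrin chain that other cells carry too, was the member that was lower after challenge (log2 -1.05 ± 0.10).

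Basophil and mast cell markers divided 5 higher to 5 lower of 11 (5 and 4 without knockout replicate 3). Prss34 and Mcpt8, basophil proteases, had log2 differences of 1.28 ± 0.09 and 1.04 ± 0.11 after challenge and 2.78 ± 0.10 and 2.84 ± 0.12 without it. Hdc, which makes histamine and is also found in neutrophils, measured 176, 184 and 170.1 CPM in wild-type and 97.3, 88.9 and 64.9 CPM in knockout libraries (log2 -1.08 ± 0.12, adjusted p = 3.24e-06) but was higher without challenge (log2 2.33 ± 0.14). Innate lymphoid cell markers (groups 2 and 3) were lower for 7 of 12 and higher for 1. Stromal and endothelial markers were lower for 11 of 18 and higher for 3, and the lower ones included Dcn, a matrix proteoglycan, and Cxcl13, the chemokine of B cell follicles, at log2 -1.41 ± 0.18 and -1.91 ± 0.24.

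Among the genes lower by the most were Reg lectins, secreted antibacterial and tissue-repair proteins of gut and pancreas, and pancreatic enzymes. Of 20 such transcripts 19 were lower and 0 higher (median log2 difference -3.01). Reg3b measured 111, 137 and 115 CPM in wild-type and 6.6, 8.69 and 6.0 CPM in knockout libraries (log2 -4.09 ± 0.15, adjusted p = 3.07e-10). Reg1 measured 73.5, 80.8 and 63.2 against 4.71, 5.57 and 3.41 CPM (log2 -3.99 ± 0.14, adjusted p = 1.92e-11), and Reg2 and Reg3d had log2 differences of -3.94 ± 0.18 and -4.63 ± 0.27. Dmbt1, a mucosal defence protein outside this list, measured 108, 121 and 100.2 and 8.4, 8.6 and 4.89 CPM (log2 -3.91 ± 0.17, adjusted p = 6.4e-10). The sum over the list was 789 to 1056 CPM in unchallenged and 1728 to 2296 CPM in challenged wild-type libraries, and 459 to 480 CPM in unchallenged and 106 to 363 CPM in challenged knockout libraries. Pancreatic tissue lies beside the spleen, and the part of such tissue in these differences was not tested.

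The genotype difference without challenge was smaller and partly of other genes. Of the 1085 genes higher without challenge, 415 (38.2%) were also higher after it, which is 11.3% of the 3673 higher after challenge. Of the 821 lower without challenge, 352 (42.9%) were also lower after it, which is 8.3% of the 4238. Over all genes tested, 22.7% were higher and 26.2% lower after challenge. In opposite directions stood 190 genes that were lower without challenge and higher after it, and 348 that were higher without it and lower after it. These contrasts share no library. Among genes with the same direction in both, Lzts1, a leucine zipper protein, measured 18.3, 17.6 and 18.8 CPM in challenged wild-type and 3.4, 3.03 and 7.01 CPM in challenged knockout libraries (log2 -2.03 ± 0.23, adjusted p = 6.21e-06), with log2 -3.30 ± 0.28 without challenge. Gdf15, a stress-induced cytokine, had -2.59 ± 0.22 after challenge and -1.86 ± 0.46 without it, and Mcpt4, a mast cell chymase, -1.79 ± 0.15 and -2.12 ± 0.19. Higher in both were Tmcc2 and Samd11 (log2 4.31 ± 0.17 and 3.50 ± 0.25 after challenge, 2.70 ± 0.15 and 2.65 ± 0.21 without it).

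**Figure D5:**
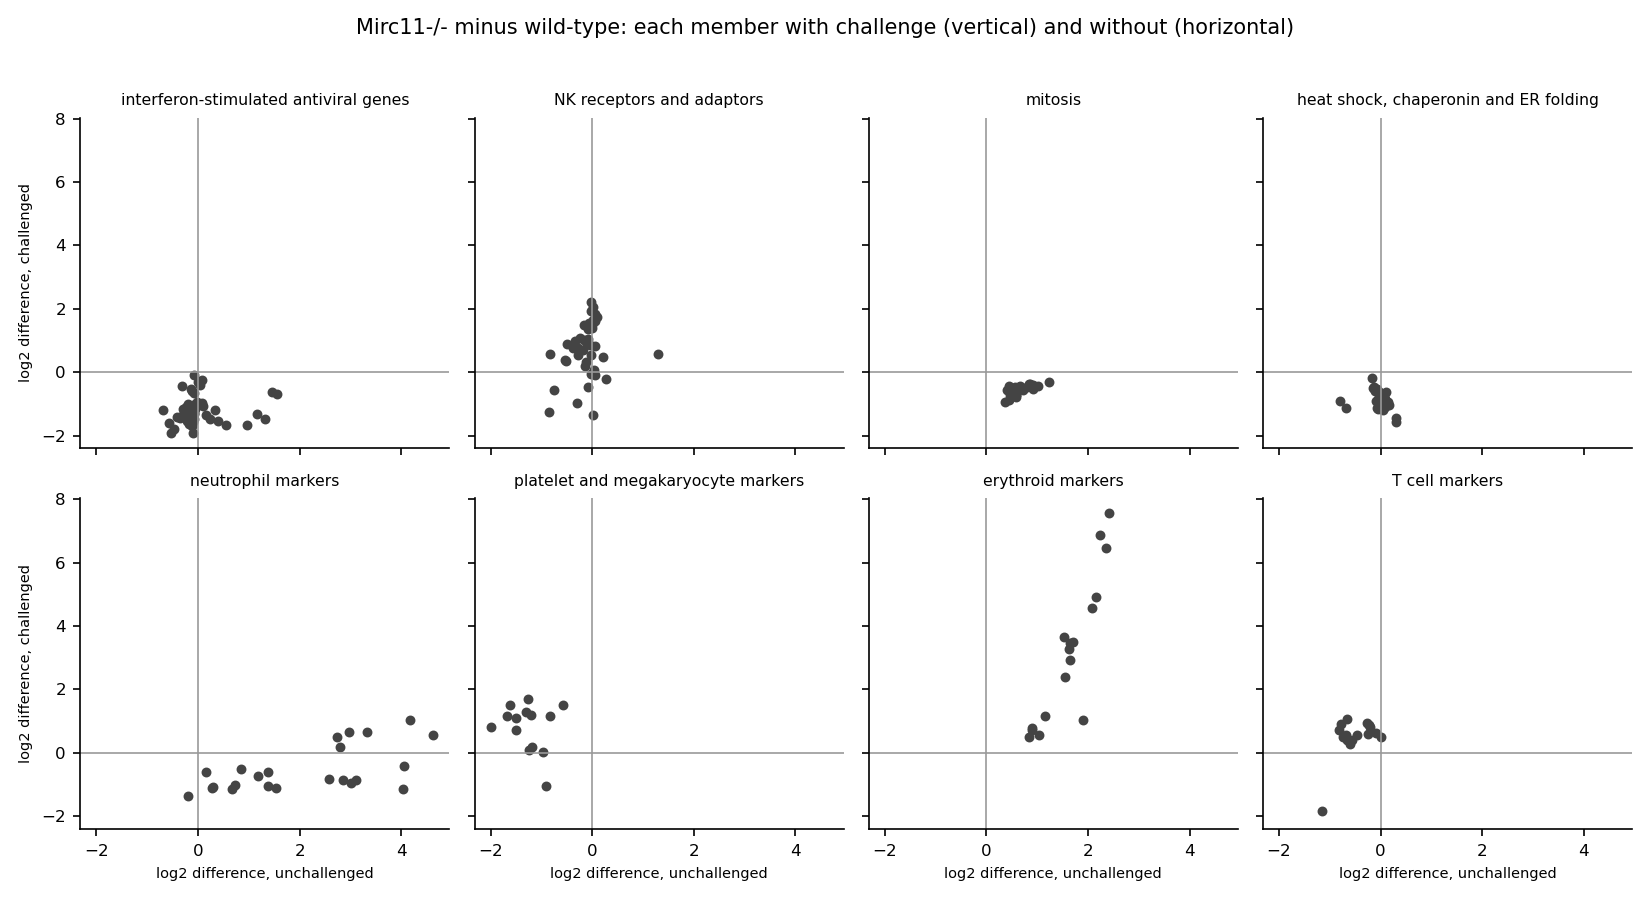
Log2 difference between knockout and wild-type libraries after challenge (vertical axes) against the same difference without challenge (horizontal axes), 1 point per tested member of 8 lists. Mitosis and neutrophil genes lie mostly where the difference is positive without challenge and negative after it, platelet and T cell markers mostly the reverse, and erythroid markers are positive in both.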

How the data were processed

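RNA was measured in 12 libraries of splenic NK cell preparations, and the values are gene counts deposited by the authors. Their route, per the submitters' processing notes, named RSEM 1.3.0, Bowtie2 2.2.8, Trim Galore 0.4.1 and bcl2fastq, with GRCm38 as the genome. RSEM gives estimated values, whereas the deposited counts were whole numbers, and the sources used here do not give their rounding, the annotation release or the use of strand. Counts were analysed as deposited, so overlapping, antisense and near-identical genes may not be separated.

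A model of 4 group means over the 12 libraries was fitted with edgeR 4.0.16 (R 4.3.3, limma 3.58.1) after filterByExpr, which kept 16694 genes, with TMM scaling and the robust quasi-likelihood F test. Adjusted p-values are Benjamini-Hochberg over all 16694 genes, and the 495 on X and Y were then left out. Called means an adjusted p under 0.05. Differences are log2, knockout minus wild-type, with standard errors, and levels are TMM-scaled CPM.

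Genes are named by a rule: per list, up to 4 called members with the smallest p, up to 2 against the list's direction and the least changed one, plus the 12 largest differences per direction, the 8 largest interactions per direction, the 8 largest per direction called the same way in the unchallenged contrast, and a fixed set. The comparison, its lists and the rule were chosen with earlier results of these data known. Alternatives were RLE and upper-quartile scaling, a fit without haemoglobin and immunoglobulin genes, other filters, DESeq2 1.42.0, a fit without robust estimation, the 6 challenged or the 6 unchallenged libraries alone, a replicate block and leaving out each library. List counts under each alternative were added after seeing the data. Some genes that the rule names are not reported here.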

Additional observations from a re-analysis of the deposited data

Results flagged for a closer look

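Of 196 genes named in the text, 171 had genotype differences that were unequal with and without challenge, by the interaction term of edgeR's quasi-likelihood test (adjusted p below 0.05). Listed here are those called in opposite directions in both settings and those with the largest interactions, except 4 of the latter with 3 or fewer counts in a group. Each value is the log2 difference after challenge minus that without it, so a negative value means that the knockout stood lower, against wild-type, after challenge than without it. Groups of 3 libraries were too small for a search for single outlying libraries.

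Granulocyte and mast cell genes had Lcn2 at -5.18, S100a8 at -3.97, Hdc at -3.40 and Mrgpra2b at -4.83. Interferon and inflammatory genes had Isg15 at -2.63, Il1b at -2.19, Cxcl16 at -2.86 and Fosl2 at -1.31. The complement gene C3 had -1.68. Il1rl1, the interleukin-33 receptor, stood at -1.97, the serpin gene Serpinb6b at -1.85, the phagocyte pore gene Mpeg1 at -1.58 and the dendritic cell factor gene Zbtb46 at -1.98. The chaperone genes Hspa8 and Hsph1 had -1.87 and -1.75, and the proliferation genes Mki67 and Top2a had -1.32 and -1.31. Npr1, a natriuretic peptide receptor, had -4.93 and the pancreatic gene Reg3d -4.77.

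Red-cell genes stood on the positive side, with Btnl10 at 5.46, Slc4a1 at 5.14 and Rhd at 4.63. Platelet and vessel wall genes had Gp6 at 3.10, Tubb1 at 2.96 and Vwf at 2.59. The B cell receptor gene Fcer2a had 2.53 and Cd209a, a lectin of dendritic cells and monocytes, 4.61. Cyp17a1, Rhpn1, Apol8 and Cecr6 had 4.92, 4.87, 4.41 and 4.33. The values are those of named genes only. The sex-linked transcripts given above differed between genotypes in both settings, but not by the same amount. Xist stood at 0.359 to 1.06 CPM in unchallenged and 523 to 1019 CPM in challenged knockout libraries. These interaction values and the change in sex between the knockout groups cannot be told apart.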

How the results depend on the processing

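Sex and genotype cannot be told apart, genes under about 2 CPM were called less often, and 3 libraries per group limit precision. Counts after challenge stayed within 1.5 times of those reported under each alternative tried, and ran from 3195 to 3708 higher and from 3650 to 4386 lower when single libraries were left out. Upper-quartile scaling gave 4468 higher and 3447 lower genes, which raised the share of calls that were higher from 46.4% to 56.4%. Without challenge the 821 lower genes became 537, 487 and 531 without wild-type replicate 2, wild-type replicate 3 and knockout replicate 3, in a range of 487 to 707; fewer samples were tested and other causes were not tested. Residuals of challenged libraries with the same replicate number had correlations of -0.317, 0.058 and -0.148, and those with unequal numbers -0.191 to 0.319. With 3 libraries per group these values cannot show whether the numbers mark a pairing. With the replicate number as a block the 6 libraries gave 2568 higher and 2826 lower genes, against 3274 and 3453 without the block. Over all alternatives, 2895 values of single genes kept their direction and side of the threshold, 26 kept direction but no longer passed, 2 passed anew and 11 turned. Those that turned were Fcer1g (0.02 under upper-quartile scaling, and -0.12 to 0.01 with single libraries left out), Gbp2b (-0.01 under RLE scaling and DESeq2, and -0.11 to 0.13), Cr2 (-0.04 to 0.09), Ccl3 (-0.02 to 0.42) and Ccl4 (-0.22 to 0.03), none of which passed in the fit reported. Of lists, ribosome biogenesis had 6 lower with the block (13 in the 6 libraries without it), oxidative phosphorylation 10 (15) and the TRAF pathway 11. Cyld, Traf6, Rela and Fos lost their calls in the 6 challenged libraries alone (adjusted p = 0.0698, 0.0859, 0.0754 and 0.115) as well as with the block (0.132, 0.193, 0.133 and 0.178), and Cblb with the block only (0.118).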

Other observations

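Complement genes, which encode the proteins and receptors that tag microbes and immune complexes, had 11 of 17 tested members lower and 4 higher in the challenged knockout (median log2 difference -0.60; 10 and 4 without knockout replicate 3). C3, the central component, measured 279, 295 and 253 CPM in wild-type and 140.5, 115 and 99.99 CPM in knockout libraries (log2 -1.22 ± 0.11, adjusted p = 6.86e-07), and Serping1, the inhibitor of the first component, 22.8, 23.9 and 19.4 CPM and 8.03, 6.93 and 5.08 CPM (log2 -1.72 ± 0.14, adjusted p = 1.47e-07). In both, the knockout libraries all lay below the wild-type ones. Cr2, a complement receptor of B cells, did not pass (log2 0.02 ± 0.08, adjusted p = 0.854). Without challenge 4 members were higher and 1 lower. Macrophages and monocytes are a known source of several of these proteins, the summed level of 23 of their markers was 2345 to 2682 CPM in challenged wild-type and 1654 to 2003 CPM in challenged knockout libraries, and the part of those cells in the complement values was not tested.

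Gene classes divided unequally between the directions. Of 13160 protein-coding genes tested, 2931 were higher and 3920 lower in the challenged knockout (52.1% called), whereas of 1496 long non-coding genes 440 were higher and 126 lower (37.8% called). The median log2 differences of these classes were -0.04 and 0.32. The share called also moved with level, from 30.1% in the 4050 genes of lowest mean CPM to 60.8% in the 4050 of highest. So did the direction, with 814 higher and 406 lower in the lowest group and 917 higher and 1546 lower in the highest. The part of level in the difference between gene classes was not tested. No test between the classes was made.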
